A study of Mus musculus with 6 samples.

Results

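The mitochondrial ribosomal protein genes were taken as every gene whose symbol is Mrpl or Mrps followed by digits and at most 1 letter. This gave 78 of the 16426 genes listed in at least 1 library, 49 Mrpl and 29 Mrps genes, and each was listed in all 6 libraries. RNA was sequenced from 6 livers of mice on a mixed B6:sv129 background, aged 7 to 12 weeks. The viral vector AAV8, injected into the tail vein, carried a scrambled short hairpin RNA (shRNA) in 3 of them. In the other 3 it carried a hairpin that targets S1PR2, a cell-surface receptor that responds to sphingosine-1-phosphate. The series text describes male wild-type mice given dexamethasone, a synthetic glucocorticoid, in the drinking water at about 0.84 mg/kg for 7 days. Vector and glucocorticoid were thus shared by both groups, and no untreated liver was analysed here. The sources used here do not give the promoter that drives the hairpin or the cells it reaches. Nothing in the labels says that replicates came from separate animals, so p-values measure the spread between these samples, which may be technical.

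The mitochondrial ribosome translates the few messages of mitochondrial DNA, which encode core subunits of the respiratory chain and of ATP synthase. All of its proteins are made from nuclear genes, translated in the cytosol and imported, while its RNA comes from the mitochondrial genome. Some of these proteins have bacterial counterparts, and others were added in mitochondria. The liver is rich in mitochondria, and defects in several of these genes cause combined respiratory chain deficiency. By structure, 51 members belong to the large subunit, which joins amino acids, and 26 to the small subunit, which reads the message. Mrps18a and Mrps30 are named as small-subunit proteins but sit in the large one. Mrps36 is now assigned to the ketoglutarate dehydrogenase complex and not to the ribosome. It was kept as a member because the rule is by symbol.

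Promoter sequence is shown for 6 members because their promoters are often described as sharing binding motifs for a few factors of mitochondrial gene control. RefSeq windows on build GRCm38.p6, from 250 bases before to 50 after a gene's start, matched 69 of the 78 members. The motifs searched on either strand were CCGGAAG, bound by ETS factors such as GABPA, AAGATGGC, bound by YY1, and the NRF1 motif, GCGCA and GCGC with any 1 base between them. The ETS motif lay in the windows of 26 members (37.7%), against 19.8% of the 9801 tested genes with a window and 9.93% of all 27025 genes of the table. The NRF1 motif was held by 13 members (18.8%), against 11.4 and 5.19%. The YY1 motif was held by 12 members (17.4%), against 5.25 and 3.19%. At least 1 of the motifs was present in 43 members (62.3%), against 32.0% of the tested genes. A match describes these letters and is not a measured binding site. The stretches below end before the gene's start and hold no exon of the GENCODE M21 annotation, and capitals mark the motif, which in Mrps27 and Mrpl12 matches on the strand opposite to the one printed.
Mrps27, ETS, chr13:99344706-99344785, plus strand: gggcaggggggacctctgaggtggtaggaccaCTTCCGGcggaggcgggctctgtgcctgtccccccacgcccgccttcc
Mrpl34, ETS, chr8:71464826-71464925, plus strand: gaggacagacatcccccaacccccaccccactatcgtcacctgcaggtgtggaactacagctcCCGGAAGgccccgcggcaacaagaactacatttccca
Mrpl22, ETS, chr11:58171564-58171660, plus strand: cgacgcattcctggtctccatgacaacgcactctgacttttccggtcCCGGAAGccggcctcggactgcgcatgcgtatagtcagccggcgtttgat
Mrpl9, NRF1, chr3:94443236-94443317, plus strand: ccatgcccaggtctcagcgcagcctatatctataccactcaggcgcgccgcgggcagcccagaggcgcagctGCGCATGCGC
Mrpl12, NRF1, chr11:120484537-120484612, plus strand: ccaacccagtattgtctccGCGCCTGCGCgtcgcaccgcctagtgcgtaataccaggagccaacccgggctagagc
Mrpl23, none of the motifs, chr7:142532932-142533011, plus strand: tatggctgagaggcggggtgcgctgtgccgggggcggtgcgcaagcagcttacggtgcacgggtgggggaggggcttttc

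The libraries held 16558775 to 17410160 expected counts, the number of fragments assigned to genes, and the members had 86 to 1455 counts each per library. S1pr2 itself fell, from 5.43 ± 1.14 to 2.49 ± 0.474 counts per 1000000 (CPM, scaled with TMM factors; mean ± SD, n = 3 each; edgeR quasi-likelihood adjusted p = 0.0301). With 20 ways to assign 3 against 3, an exact two-sided permutation test cannot go below the p of 0.1 that it gave. The S1pr2 call was lost without scramble liver 2 (adjusted p = 0.0785) or 3 (0.0962), or without S1PR2 shRNA liver 2 (0.117) or 3 (0.101). The 10 hepatocyte markers were all detected, at a summed 126000 to 154000 CPM of total counts in scramble and 98000 to 124000 in S1PR2 shRNA livers. Alb alone made up most of these sums. Of the 10 markers 0 passed in edgeR, with 9 log2 fold changes below 0 and 1 above (Apoa1, 1.08). In scramble and then S1PR2 shRNA livers, summed endothelial markers ran from 251 to 280 and 354 to 419 CPM, and 4 of 10 rose. Macrophage markers ran from 120 to 307 and 188 to 459 CPM, and stellate cell markers from 207 to 484 and 321 to 665. Cholangiocyte markers stood at 27.5 to 52.5 and 47.5 to 127 CPM (1 of 6 tested rose), erythroid markers at 294 to 465 and 388 to 569, and lymphocyte and neutrophil markers at 2.94 CPM or less in every liver, with Ly6g listed in none. Their part in the results below was not tested, and in bulk tissue fewer cells of a type and less RNA per cell cannot be told apart.

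The fitted changes of the mitochondrial ribosomal protein genes were small, and no member passed the test. Of the 78 members, all of which passed the count filter, 0 rose and 0 fell at an adjusted p under 0.05 in the edgeR quasi-likelihood test, against 7.66% of all 12230 tested genes (937). The DESeq2 Wald test and limma-voom also called 0 members. At an unadjusted p under 0.05 there were 8 members (10.3%), against 24.5% of all tested genes. The median log2 fold change of the members, S1PR2 shRNA minus scramble, was -0.01, with 38 above and 40 below 0, and that of all tested genes was 0.01. The fold changes ran from -0.47 in Mrpl23 to 0.43 in Mrps27, so every member stayed within 1.5-fold, as did 83.6% of all tested genes.

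A p that misses the threshold does not show equal levels, so the intervals were read as well. The 95% interval of the fold change lay wholly within 1.5-fold of no change for 71 of 78 members (91.0%), against 42.6% of all tested genes, and wholly within 2-fold for all 78 (72.0% of all tested genes). The interval reaching lowest was that of Mrpl23 (lower bound -0.82) and the one reaching highest that of Mrps27 (upper bound 0.70). These intervals hold for TMM scaling and do not include the choice of scaling. With total counts alone the member median was 0.14, that of all tested genes 0.17, and the log2 fold change of Mrps27 0.58. The members also varied little between livers of 1 group: the median within-group SD of log2 CPM was 0.12, against 0.20 for all tested genes, and 71 members lay below that second value. Their median level, 24.2 CPM, was above the 14.2 CPM of all tested genes, and a higher level narrows the counting error.

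**Figure D1:**
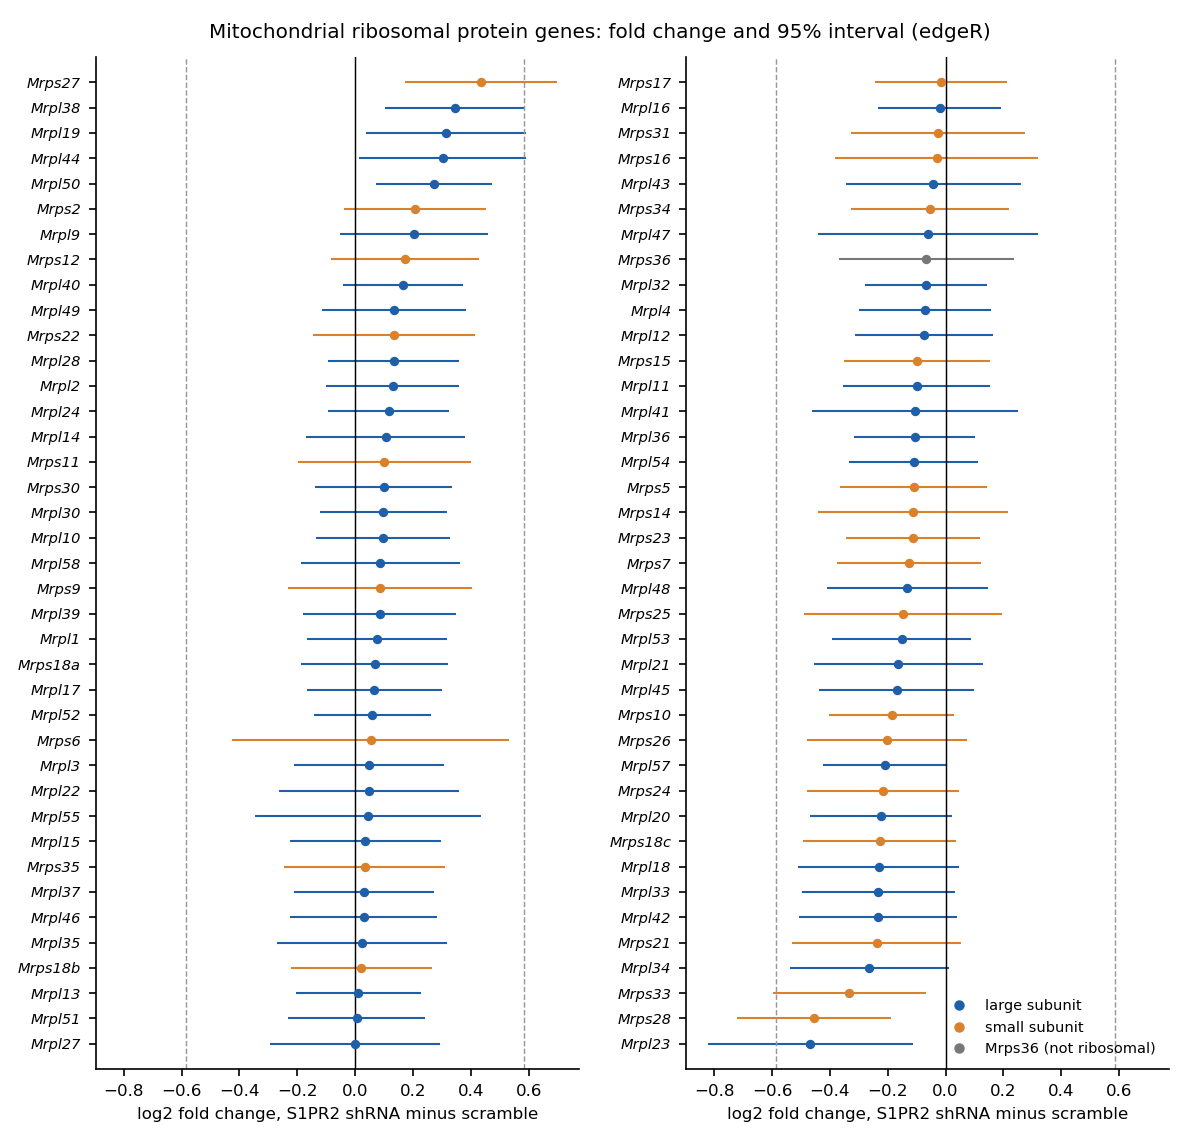
Fold change of each of the 78 members on the log2 scale (x axis, S1PR2 shRNA minus scramble) with its 95% interval from edgeR; blue marks large-subunit, orange small-subunit proteins and grey Mrps36, and dashed lines mark 1.5-fold. The points run from -0.47 (Mrpl23) to 0.43 (Mrps27), and 71 intervals stay between the dashed lines.

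Relative to the scramble mean of each gene, the median member stood at 0.00, 0.00 and 0.02 log2 units in scramble livers 1 to 3 and at -0.12, 0.02 and 0.03 in S1PR2 shRNA livers 1 to 3. On this TMM scale liver 1 of the S1PR2 shRNA group was therefore the lowest of the 6, with 24 of 78 members above the scramble mean, and the groups overlapped. The groups were fully separate in 21 members (26.9%), 7 higher and 14 lower in S1PR2 shRNA livers. Over all 12230 tested genes the groups did not overlap in 31.9%, with 1851 higher and 2055 lower. Of total counts, in contrast, the members took 0.206, 0.194 and 0.203% in scramble and 0.227, 0.216 and 0.220% in S1PR2 shRNA livers, with no overlap. By this share, and by median FPKM (26.24), S1PR2 shRNA liver 1 was the highest of the 6, so its rank reversed with the scaling. Its TMM factor was the largest, at 1.154 against 0.9235 to 1.027 in the other livers. Over the same libraries the 10 most abundant genes took 25.2 to 27.5% of counts in scramble and 22.2 to 24.6% in S1PR2 shRNA livers. Scaled to total counts alone, the member median was 0.14, with 61 of 78 above 0, and that of all tested genes 0.17, so the members did not stand above the other genes on that scale either.

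The large and small subunits were described apart. Among the 51 large-subunit genes the median log2 fold change was 0.03, with 29 above and 22 below 0. Among the 26 small-subunit genes it was -0.08, with 9 above and 17 below. With total counts alone both medians lay above 0, at 0.18 and 0.07. The large-subunit median was the higher one in all 17 alternative fits, but no test of the difference was made, since genes are not replicates. The 48 members with a bacterial counterpart had a median of -0.01 and the 29 proteins added in mitochondria of 0.00 (0.005 before rounding). The 43 members with at least 1 of the promoter motifs had a median of 0.00 and the 26 without any of -0.02.

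The members that came closest to a rise were led by Mrps27, a small-subunit protein with pentatricopeptide repeats. Scramble livers 1 to 3 had 19.5, 20.97 and 20.4 CPM, and S1PR2 shRNA livers 1 to 3 had 25.9, 31.3 and 25.1 CPM. All 3 S1PR2 shRNA livers were above all scramble livers, and the log2 fold change was 0.43 (SE 0.11, edgeR adjusted p = 0.0587). An exon of Mrps27 overlaps a gene on the other strand in GENCODE M21, so its counts may include reads of that gene. Mrpl38, a large-subunit protein added in mitochondria, was at 51.4, 54.4 and 48.5 CPM and then 67.1, 70.1 and 58.9 CPM. The groups did not overlap, and the log2 fold change was 0.35 (SE 0.10, edgeR adjusted p = 0.0890). Mrpl50, also of the large subunit, was at 36.4, 35.0 and 34.3 CPM against 43.9, 42.1 and 41.6 CPM. It too had no overlap (0.27, SE 0.09, edgeR adjusted p = 0.103). These 3 are the members whose call depended on the scaling: with upper-quartile factors all 3 rose (adjusted p = 0.0423, 0.0493 and 0.0473 in the order named). With total counts alone Mrps27 (0.0245) and Mrpl38 (0.0460) rose, and on FPKM Mrps27 did (0.0273 and 0.0286 with pseudocounts of 0.1 and 1).

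Next by p on the higher side were Mrpl19, Mrpl44, Mrps2, Mrpl9, Mrpl40, Mrps12 and Mrpl28. Mrpl19, a large-subunit protein with a bacterial counterpart, had 10.2, 10.1 and 8.84 CPM in scramble and 12.3, 12.7 and 11.2 CPM in S1PR2 shRNA livers, without overlap (0.32, SE 0.12, edgeR adjusted p = 0.154). Mrpl44, which carries a ribonuclease III fold, overlapped between groups: scramble liver 1 at 17.2 CPM lay above S1PR2 shRNA liver 1 at 16.7 CPM. Mrps2 and Mrpl40 had no overlap, with log2 fold changes of 0.21 and 0.17. Mrpl9, Mrps12, which lines the decoding centre, and Mrpl28 overlapped, at 0.20, 0.17 and 0.13. None of these 7 passed in any of the 17 alternative fits. Mrpl19, Mrpl44 and Mrpl9 have an exon that overlaps a gene on the other strand, as Mrps27 has. None of the 10 lower members with the smallest p has such an exon. Mrpl19, Mrpl9 and Mrpl40 had fractional counts in all 6 libraries, which arise where reads are divided between genes.

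On the lower side the smallest p belonged to Mrps28, the small-subunit relative of bacterial ribosomal protein S1. Scramble livers 1 to 3 had 16.3, 15.4 and 17.7 CPM, and S1PR2 shRNA livers 1 to 3 had 10.8, 12.3 and 12.9 CPM. The S1PR2 shRNA livers were the 3 lowest, and the log2 fold change was -0.46 (SE 0.12, edgeR adjusted p = 0.0531). Mrpl23, which lies by the exit of the nascent chain, was at 24.7, 25.8 and 30.1 CPM and then 15.4, 21.4 and 21.6 CPM. It was lowest in S1PR2 shRNA liver 1, and the groups did not overlap (-0.47, SE 0.15, edgeR adjusted p = 0.108). Mrps33, a small-subunit protein added in mitochondria, was at 24.6, 21.7 and 25.2 CPM against 17.4, 18.3 and 21.1 CPM. Its groups were separate as well (-0.33, SE 0.12, edgeR adjusted p = 0.122).

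**Figure D2:**
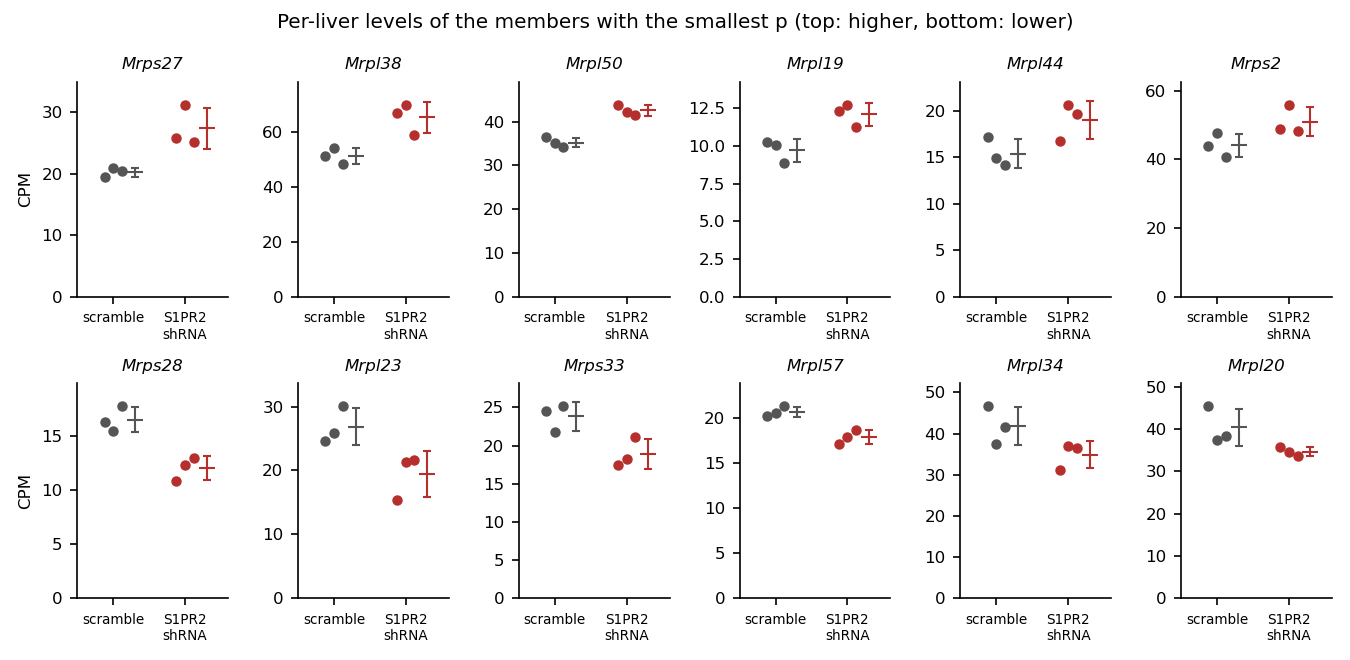
CPM in each liver (dots; y axis from 0) with the mean ± SD (n = 3) of each group, for the 6 members with the smallest p on the higher side (top) and on the lower side (bottom). Only Mrpl44 of these 12 overlaps between groups.

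The other 7 of the 10 lower members with the smallest p were Mrpl57, Mrpl34, Mrpl20, Mrpl33, Mrpl42, Mrps10 and Mrps18c. Their log2 fold changes ran from -0.26 (Mrpl34) to -0.19 (Mrps10), with no overlap between groups. Mrpl57, the first of them by p, was at 20.2, 20.6 and 21.4 CPM in scramble and 17.2, 17.9 and 18.7 CPM in S1PR2 shRNA livers (-0.21, SE 0.09, edgeR adjusted p = 0.211). No lower member passed in any alternative fit, and the lowest adjusted p among these 10 over all of them was 0.0523, for Mrps28.

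Levels between genes were compared in the deposited FPKM, fragments scaled to transcript length and to mapped fragments. Over the members the group means ran from 1.81 ± 0.146 (Mrpl19) to 95.6 ± 5.08 FPKM (Mrpl52) in scramble livers (SD, n = 3), a 52.7-fold range, although most of these proteins are present once per ribosome. In S1PR2 shRNA livers the range was 44.0-fold. Both ranges include the division by transcript length, which is 5016 bases for Mrpl19 and 412 for Mrpl52 in the deposited tables. In scramble livers the median member was at 22.3 FPKM, and the middle of the members lay between 12.2 and 32.3 FPKM (quartiles). Large-subunit genes had a median of 23.3 and small-subunit genes of 20.9 FPKM in scramble livers. Members with a bacterial counterpart stood at a median of 24.8 and those added in mitochondria at 17.1 FPKM.

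The highest members over all 6 livers were Mrpl52, Mrpl12, Mrpl42, Mrps21 and Mrpl30. Mrpl52 was at 100.4, 90.3 and 96.2 FPKM in scramble and 116.6, 107.0 and 107.7 FPKM in S1PR2 shRNA livers. Mrpl12 forms the stalk that recruits translation factors, is present in several copies per ribosome and also binds the mitochondrial RNA polymerase. Its level was 83.3, 84.9 and 89.0 FPKM in scramble and 89.6, 89.0 and 91.6 FPKM in S1PR2 shRNA livers, while by TMM-scaled counts it stood at 85.5 ± 3.56 and 81.2 ± 6.62 CPM. The direction of Mrpl12 thus turned with the scaling (log2 fold change -0.07 by TMM, edgeR adjusted p = 0.721, and up to 0.07 over the alternatives). Mrpl42 (86.5 ± 13.0 FPKM in scramble) and Mrpl12 (85.7 ± 2.94) did not differ beyond their spread, and neither did Mrps21 (65.2 ± 7.98) and Mrpl34 (62.3 ± 8.32). In all, 64 of the 77 neighbouring pairs in the scramble order were within 1 pooled SD of each other. The lowest members over all 6 livers were Mrpl19 (2.16 FPKM), Mrps25 (2.87) and Mrpl35 (5.97). All 3 have long transcripts in the deposited tables (5016, 6076 and 3695 bases, against a member median of 1056), and FPKM divides by that length. By TMM-scaled counts they had 9.72, 18.6 and 22.1 CPM in scramble livers, against a median of 24.2 CPM over the members in all livers. They also had fractional counts in every library, as had 15 members in all. Such counts arise where reads are divided between genes, so these levels are uncertain.

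**Figure D3:**
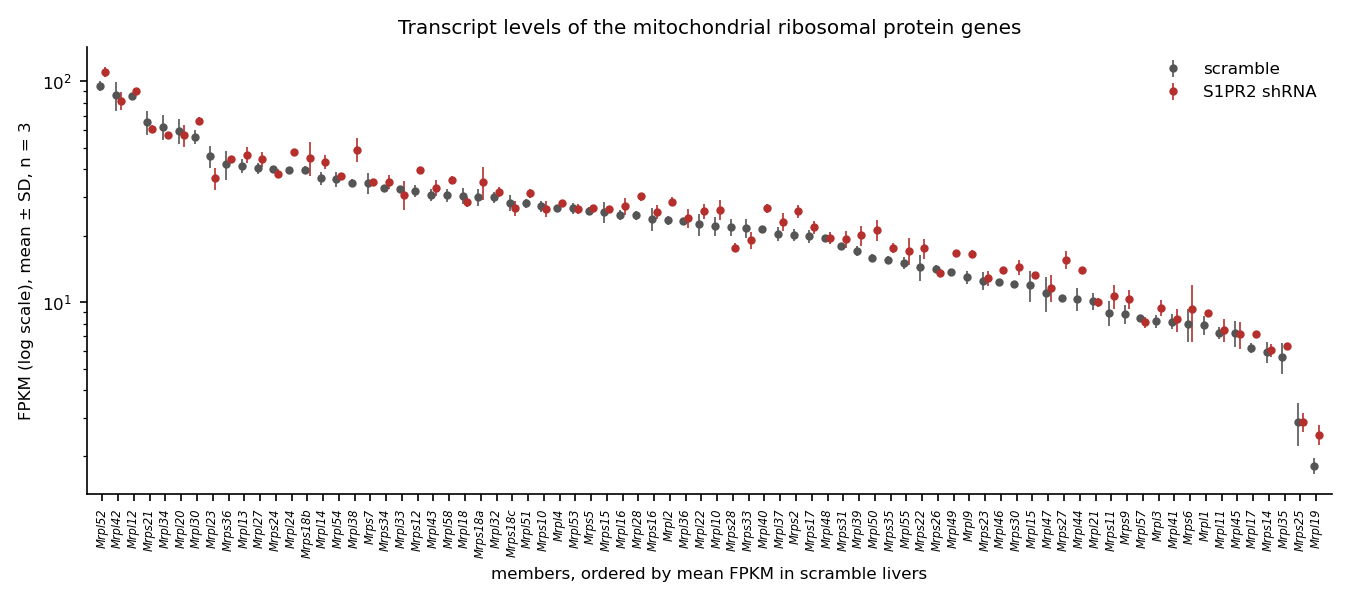
Mean ± SD (n = 3) FPKM, on a log scale, of every member in scramble (grey) and S1PR2 shRNA livers (red), ordered by the scramble mean. Mrpl52 is highest and Mrpl19 lowest, and the grey and red points follow the same slope.

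The order of levels was nearly the same in both groups (Spearman rho 0.99 across the 78 genes, a description, since genes share libraries and length). Mean FPKM was higher in S1PR2 shRNA livers for 61 members (78.2%), as it was for 69.6% of all tested genes. On the same scale the groups did not overlap upward in 24 members (30.8%, against 25.8% of all tested genes) and downward in 3 (3.85%, against 8.12%). FPKM are scaled to total fragments, and on that scale the median of all genes was 0.16 log2 units with a pseudocount of 0.1, against 0.14 for the members. With a pseudocount of 1 it was 0.10 for all genes and 0.13 for the members, so their order turned with the pseudocount.

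By transcript length, the shorter members lay lower than the longer ones. The 34 members with transcripts of at most 1000 bases had a median log2 fold change of -0.07, with 23 below and 11 above 0. The 44 longer ones had a median of 0.03, with 17 below and 27 above. Under 700 bases the median of 14 members was -0.19, with 10 below 0. Spearman's rho between length and fold change was 0.34 over the 78 members. Over all tested genes rho was -0.04, and the 820 tested genes of at most 1000 bases had a median of 0.03. Among 75 oxidative phosphorylation subunits rho was -0.02 and among 76 cytosolic ribosomal protein genes -0.21. Leaving out 1 liver at a time gave rho of 0.29 to 0.37 over the members. With total counts alone the short and long medians were 0.07 (0.075 before rounding) and 0.18, so the sign of the short members turned with the scaling while the order stayed. The part of length in the fold changes was not tested.

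**Figure D4:**
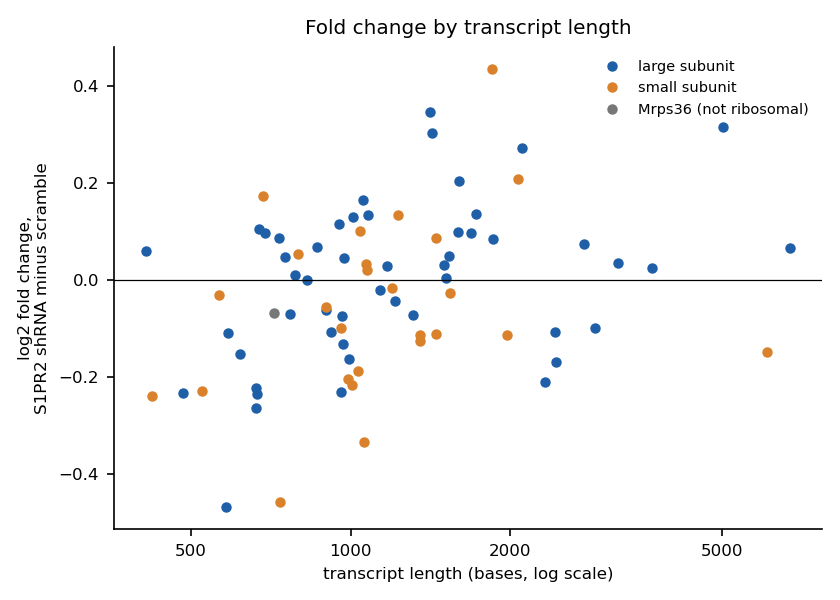
Log2 fold change (y axis, S1PR2 shRNA minus scramble) against the transcript length in the deposited tables (x axis, bases, log scale) for the 78 members, coloured by subunit. Most points under 700 bases lie below 0, and Mrpl23 and Mrps28, the lowest points, are both shorter than 1000 bases.

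The cytosolic ribosome, whose proteins are also made in nearly equal numbers for 1 complex, gave other values in the same fit. Of 76 cytosolic ribosomal protein genes, 40 rose, 0 fell and 36 did not pass, with a median log2 fold change of 0.65 and 75 above 0. In 73 of the 76 (96.1%) every S1PR2 shRNA liver was above all scramble livers. The number called varied with the livers fitted, as it did for all genes: 0 were called without scramble liver 2 or without S1PR2 shRNA liver 2, 2 without S1PR2 shRNA liver 3, 8 without S1PR2 shRNA liver 1, 11 without scramble liver 1 and 31 without scramble liver 3. The median over these 6 fits ran from 0.52 to 0.80. With the replicate number as a block 16 were called, and 62 with total counts alone. The DESeq2 Wald test called 68. Of 75 tested oxidative phosphorylation subunits, most of them from complexes that mitochondrial translation serves, 0 rose and 0 fell in edgeR. At an unadjusted p under 0.05 there were 5 (edgeR), and the DESeq2 Wald test called 3. Their median log2 fold change was -0.10, which was 0.04 with total counts alone. The difference between these groups and the members was not tested. The member median of -0.01 lay between theirs.

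**Figure D5:**
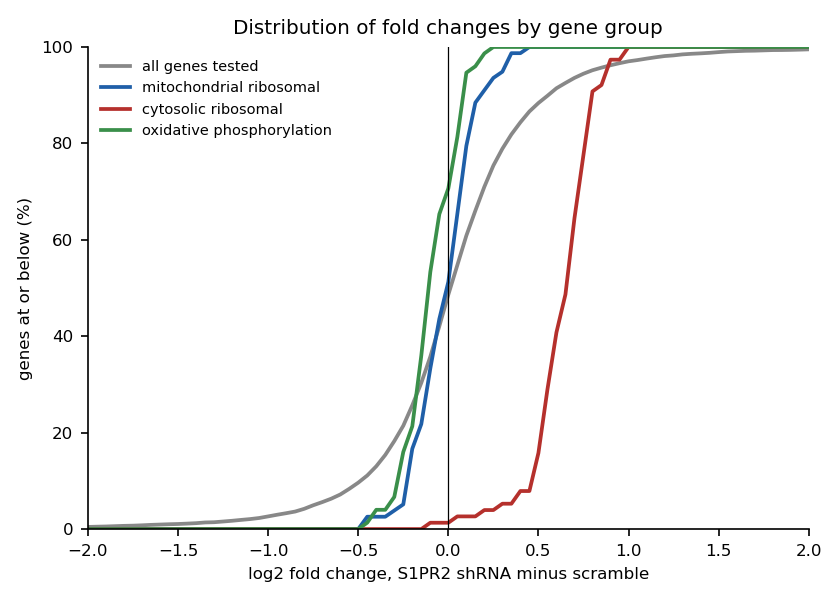
Cumulative share of genes (y axis, %) at or below a log2 fold change (x axis, S1PR2 shRNA minus scramble) for all tested genes (grey), the 78 mitochondrial (blue) and 76 cytosolic ribosomal protein genes (red) and 75 oxidative phosphorylation subunits (green). The blue curve crosses 0 near its middle and is steeper than the grey one, and the red curve lies to the right.

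Of 5 further ribosomal proteins that carry other symbols, 1 fell, 0 rose and 4 did not pass (edgeR; median -0.02). Chchd1, a small-subunit protein, fell: scramble livers 1 to 3 had 18.7, 17.9 and 23.2 CPM, and S1PR2 shRNA livers 1 to 3 had 11.5, 13.9 and 13.5 CPM. The groups did not overlap, and the log2 fold change was -0.62 (SE 0.14, edgeR adjusted p = 0.0337). The call was lost when any 1 liver was left out (adjusted p from 0.0580 to 0.0970), with upper-quartile factors (0.0565), with total counts alone (0.0696) and on FPKM (0.0697 and 0.0710). Ptcd3, a pentatricopeptide protein of the small subunit, was lower by the values but did not pass (-0.27, edgeR adjusted p = 0.106). The other genes of the list, Gadd45gip1, Aurkaip1 and Dap3, a GTP-binding protein of the small subunit, lay at -0.02, 0.01 and 0.00.

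Factors that work with the ribosome mostly did not pass either. Of 14 mitochondrial translation factors 0 passed (2 at an unadjusted p under 0.05, edgeR; median 0.03). Gfm1, the elongation factor that moves the ribosome along the message, was at 119.2, 108.8 and 100.5 CPM in scramble and 71.4, 83.7 and 84.2 CPM in S1PR2 shRNA livers. Its groups were separate (-0.46, SE 0.12, edgeR adjusted p = 0.0553), and it was called by the DESeq2 Wald test (0.0122). Oxa1l, the inner-membrane insertase that receives the new chains, stood at 0.32 (edgeR adjusted p = 0.195). Tufm, the factor that delivers loaded tRNA, named after its values were seen, stood at 0.03.

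Of 20 genes that charge mitochondrial tRNA, 0 passed in edgeR (4 at an unadjusted p under 0.05; median -0.04). Tars2 (-0.45, adjusted p = 0.104) and Iars2 (-0.27, adjusted p = 0.113), the threonine and isoleucine synthetases, had the smallest p. Of 31 assembly and maturation factors, 1 rose, 0 fell and 30 did not pass (median 0.01). C1qbp, an RNA-binding protein of the matrix, rose from 51.3, 52.5 and 55.9 to 72.3, 73.7 and 64.5 CPM (0.40, SE 0.10, edgeR adjusted p = 0.0479), with fractional counts in all 6 libraries. The C1qbp call was lost when any 1 liver was left out (adjusted p from 0.0794 to 0.172), with no filter (0.0609), with limma-voom (0.0545) and with the replicate number as a block (0.0858). Of 19 genes of mitochondrial transcription, DNA and RNA handling, 0 passed in edgeR (3 at an unadjusted p under 0.05; median 0.01). Hsd17b10 (-0.58, adjusted p = 0.138) and Elac2 (-0.33, adjusted p = 0.108), which take part in cutting mitochondrial tRNA from its precursors, had the smallest p.

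Of 11 nuclear regulators of these genes, 0 passed in edgeR (2 at an unadjusted p under 0.05; median 0.09). Myc, a growth-related transcription factor, was at 3.80, 3.98 and 3.03 CPM in scramble and 24.5, 5.57 and 5.33 CPM in S1PR2 shRNA livers. All 3 S1PR2 shRNA livers were higher, but liver 1 set most of the mean (log2 fold change 1.72, SE 0.68, edgeR adjusted p = 0.190). Without it the fold change was 0.60 (adjusted p = 0.138), and the DESeq2 Wald test on all livers called it (0.0165). Max, its partner, was lower by the values (-0.43, SE 0.12, edgeR adjusted p = 0.0699). Gabpa, Nrf1, Yy1 and the coactivator Ppargc1a, named after their values were seen, stood at 0.09, 0.24, -0.14 and -0.13.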

How the data were processed

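The submitters' processing notes name RSEM 1.2.12, HISAT2, Bowtie2, DESeq2 and the build mm9. The sources used here do not give their roles, the read filters or the strand handling. Per the file headers, the authors deposited for each gene an expected count, not scaled to depth, an FPKM value and a transcript length in bases. Expected counts were rounded; genes not listed in a library were set to 0. Of 16426 genes, 12230 passed filterByExpr (minimum count 10) and were fitted with edgeR 4.0.16 (R 4.3.3): TMM factors, robust quasi-likelihood F test, two-sided, group as the only factor, Benjamini-Hochberg adjustment over all tested genes, called at an adjusted p under 0.05. The common biological coefficient of variation was 20%. Intervals are 95% and use the standard error and degrees of freedom of that fit. The fit was also run on simulated counts. These were drawn with a smaller spread than the real data and without a shift in composition. That run therefore does not show how the fit performs at the spread seen here. No 2 libraries were copies (chi-square per degree of freedom 18.2 to 178.2 over 15 pairs).

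The members, gene lists and rules were chosen with earlier results of these data known. Named genes were S1pr2, the 10 members with the smallest p in each direction, the 5 highest and 3 lowest by FPKM, and of each list up to 4 called genes, otherwise the 2 with the smallest p. Alternatives were other scaling (upper-quartile, DESeq2 size factors), other filters (none, or mean CPM of 1 or more), the DESeq2 1.42.0 Wald test, limma-voom (limma 3.58.1), no robust option, the replicate block, limma on log2 FPKM with pseudocounts of 0.1 and 1 (mean FPKM at least 0.1), and each liver left out. Total counts alone were added after seeing the data. Fractional counts, from reads shared between genes, occurred in 22 members, and 28 have an exon overlapping a gene on the other strand in GENCODE M21, whose reads cannot be told apart without strand handling. An exon overlapping a gene on the same strand occurs in 8 members. Of 13 genes of mitochondrial DNA searched for by symbol, 0 were found among the listed genes, so their transcripts were not analysed here.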

Additional observations from a re-analysis of the deposited data

How the results depend on the processing

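The number of members called was 0 with each liver left out (0 to 0 over 6 fits) and in every other alternative except 3 with upper-quartile factors, 2 with total counts alone and 1 on FPKM with either pseudocount. The member median ran from -0.063 to 0.043 with 1 liver left out, and was 0.139 with total counts alone and 0.137 and 0.132 on FPKM with pseudocounts of 0.1 and 1, where the median of all genes was 0.166, 0.157 and 0.102. The count of all called genes was 231 to 643 with 1 liver left out (533, 456 and 400 without scramble liver 1, 2 or 3, and 643, 231 and 414 without S1PR2 shRNA liver 1, 2 or 3) and 1461 with the DESeq2 Wald test. Calls over the lists of related genes, 2 in the fit reported, were 0 with any 1 liver left out, 1 with upper-quartile factors, no filter, limma-voom, the replicate block and either FPKM pseudocount, and 4 with the DESeq2 Wald test. S1pr2 kept its direction but lost its call with total counts alone (-0.96), with the replicate block (-1.11) and on FPKM (-0.90 and -0.54), and ran from -1.29 to -0.95 with 1 liver left out. With TMM factors 60.6% of all calls were lower, with upper-quartile factors 48.5%, with total counts alone 29.4% and on FPKM 30.8 and 30.6%. Same-numbered livers shared only a number: their deviations from the group means correlated at -0.06, 0.22 and -0.12, and not every liver correlated best with its own number. The replicate block changed the count of all calls from 937 to 808. The causes were not tested. Mrpl12 (-0.07) turned to 0.07 with total counts alone and on FPKM with either pseudocount. Mrps25 (-0.15) turned to 0.00, 0.02 and 0.01 there, and ran from -0.30 to 0.00 with 1 liver left out (above 0 without scramble liver 1). Mrpl35 (0.02) turned to -0.10 without scramble liver 2 and -0.03 without S1PR2 shRNA liver 2. At 86 to 1455 counts per member and library, the standard error of a member's log2 fold change was 0.09 to 0.21. The largest unadjusted p among all called genes was 0.00381, and members that lay several standard errors from 0, such as Mrpl23 (-0.47, SE 0.15) and Mrps28 (-0.46, SE 0.12), did not pass.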

Other observations

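Members varied together between livers of 1 group. Over the 3003 pairs of members the median correlation of their within-group deviations in log2 CPM was 0.29, against 0.00 over pairs of all tested genes. These correlations rest on 6 livers and on shared library scaling, and are given as a description.

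Mrps11 and Mrpl46 start 42 bases apart on opposite strands in the RefSeq table (GRCm38.p6) and share 141 bases of their promoter windows, so a small-subunit and a large-subunit gene are read outward from 1 stretch. Their log2 fold changes were 0.10 (SE 0.13, edgeR adjusted p = 0.699) and 0.03 (SE 0.11, edgeR adjusted p = 0.904). In GENCODE M21 exons of Mrps11 and Mrpl46 overlap on opposite strands, so some reads may have been counted for the wrong gene of the pair. Of the 12 members with a YY1 motif, 7 had a fold change above 0, as had 11 of the 26 with an ETS motif and 7 of the 13 with an NRF1 motif.

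Mrpl58, a large-subunit protein that frees stalled chains and derives from release factors, stood at 0.09 (SE 0.12, edgeR adjusted p = 0.718). Mrps36, the member outside the ribosome, stood at -0.07 (SE 0.13, edgeR adjusted p = 0.805).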
